A study of Mus musculus with 35 samples.

Results

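The Nr4a and Egr regulators are 6 genes, Nr4a1, Nr4a2, Nr4a3, Egr1, Egr2 and Egr3, chosen by name, out of 18193 genes measured on the arrays. They were read by 15 of the 45101 probe sets of the array, and each gene is given here through the probe set with the highest mean over all arrays. All 6 were kept by the filter on dim genes. Their values are described across 35 arrays by cell type, tissue and array set.

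Nr4a1, Nr4a2 and Nr4a3 are orphan nuclear receptors, and Egr1, Egr2 and Egr3 are zinc finger transcription factors. They are immediate-early genes: growth factors, antigen receptors, cytokines, cell adhesion and handling of the cells can induce them within minutes, before new protein is made, and their mRNAs are short-lived. CREB, which binds cAMP response elements, is a known inducer of the Nr4a genes, and serum response factor with its ternary complex partners, which binds CArG boxes, is a known inducer of the Egr genes. In mice, Nr4a1 is required for Ly6C-low (nonclassical) monocytes, Egr2 for the identity of alveolar macrophages, and Egr1 is known for its part in monocytic differentiation.

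The arrays held total RNA of cells sorted by flow cytometry from male C57BL/6J mice aged 8 weeks, with no treatment and no genetic change named in the labels. In bone marrow, SatM, monocytes linked to fibrosis in the labels, had 2 arrays, as did inflammatory monocytes. SMP, labelled as the progenitor of SatM, and cMoP, the common monocyte progenitor, had 4 arrays each, of which 2 carry WT in the title and 2 only a number. GMP (granulocyte-monocyte progenitor) and MDP (monocyte and dendritic cell progenitor) had 1 array each, and splenic basophils, eosinophils and neutrophils had 2 each. A panel of 15 further arrays, 1 for each sort, held 2 tissue-resident M2-like macrophage arrays (spleen, marrow), 2 lung macrophage arrays (titled MP and F4/80-positive, from lavage), 4 SatM arrays (spleen, blood, lung, marrow), 3 arrays of F4/80-negative, Mac1-positive, Ly6C- cells that lacked the sort markers Msr1 and Ceacam1 (spleen, blood, marrow; called marker-negative here), 2 arrays of other Ly6C- monocytes (spleen, blood) and 2 of Msr1-dull, Ceacam1-dull cells (lung, marrow; called marker-dull). All 4 lung arrays, of SatM and marker-dull cells too, carry BAL (lavage) in the title, so lung here means lavage cells. The labels do not say whether arrays of a group came from separate mice. Outside the panel p-values thus measure the spread between these arrays, which may be technical. The panel has 1 array per sort, so its p-values measure mainly how far arrays depart from the sum of cell type and tissue terms.

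Promoters of the Nr4a genes are shown because all 3 carry the same short element several times. The RefSeq table (build GRCm38.p6) held windows for 4 of the 6 genes, Nr4a1, Nr4a2, Nr4a3 and Egr2. Each line gives the 250 bases before the start that the table holds for the gene, 5′ to 3′ on the strand of the gene, and capitals mark the core of the cAMP response element, TGACG, or its reverse complement CGTCA.
Nr4a1, chr15:101266596-101266845, plus strand: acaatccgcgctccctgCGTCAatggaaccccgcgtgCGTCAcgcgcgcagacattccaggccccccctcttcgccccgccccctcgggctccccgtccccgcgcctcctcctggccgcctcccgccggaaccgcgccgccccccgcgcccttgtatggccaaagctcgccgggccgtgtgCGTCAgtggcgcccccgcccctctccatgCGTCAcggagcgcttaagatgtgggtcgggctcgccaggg
Nr4a2, chr2:57124004-57124253, minus strand: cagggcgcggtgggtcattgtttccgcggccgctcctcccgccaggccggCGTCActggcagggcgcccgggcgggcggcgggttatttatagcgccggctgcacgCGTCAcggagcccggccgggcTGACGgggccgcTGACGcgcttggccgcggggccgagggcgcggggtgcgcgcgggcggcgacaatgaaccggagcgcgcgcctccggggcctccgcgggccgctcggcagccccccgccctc
Nr4a3, chr4:48045055-48045304, plus strand: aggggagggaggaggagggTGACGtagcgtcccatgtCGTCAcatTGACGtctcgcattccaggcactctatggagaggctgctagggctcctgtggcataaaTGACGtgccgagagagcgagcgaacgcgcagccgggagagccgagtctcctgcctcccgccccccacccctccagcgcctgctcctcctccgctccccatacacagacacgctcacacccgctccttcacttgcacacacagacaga
Each of the 3 windows held 4 such cores. Over 32851 windows of the same length, 17.8% held at least 1 core and 0.137% held at least 4. The cores were the reason for showing these windows, so that share is a description, not a test. The full element TGACGTCA, in 1.55% of the windows, was in none of the 3. The sequence GCGNGGGCG, which Egr proteins bind, occurred 1 time each in the Nr4a1 and Nr4a2 windows, 60 and 74 bases before the start, and in 4.70% of all windows. The Nr4a monomer element AAAGGTCA, in 1.34% of windows, was in none of the 3. For Egr2 the table held 5 starts on chromosome 10. A CArG box lay in 4 of these 5 windows and in 1.47% of all windows, and 3 of them held 2 such cores. Those 3 windows overlap and hold the same CArG box and the same 2 cores, so they are not separate matches. Both strands were searched, and a match describes the letters, not binding.

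In the same build Nr4a1 spans 101253902 to 101274795 on chromosome 15, Nr4a2 57106830 to 57124003 on chromosome 2 and Nr4a3 48045078 to 48086447 on chromosome 4. Egr2 spans 67534469 to 67542188 on chromosome 10, Egr3 70077317 to 70082613 on chromosome 14, and Egr1 lies on chromosome 18. The Nr4a1 window thus lies inside the gene's span, before an internal start. Most of the Nr4a3 window also lies inside its gene's span, and only its first bases lie before it.

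Values are the log2 expression values that the authors deposited, so 1 unit is a doubling. Their lowest value, 2.30, is a floor shared by 45.9% to 49.0% of an array's probe sets. Precision is limited by how few arrays a sort has. Some sorts carried marker genes that go against their labels. The 6 basophil markers (Mcpt8, Fcer1a, Ms4a2, Cpa3, Cd200r3, Gata2) summed to 78.2 to 82.3 log2 units in the 4 SMP arrays, against 19.2 to 21.3 in the 4 cMoP arrays, where 4 of the 6 were at the floor, and 82.5 to 83.1 in the 2 basophil arrays. The 5 monocyte markers matched in the table summed to 26.6 to 36.5 in SMP and 56.6 to 61.0 in cMoP. The 4 matched NK cell markers summed to 12.03 to 18.4 in the 4 panel SatM arrays, against 40.3 to 45.4 in the 3 marker-negative arrays, where none was at the floor. The part of these cells in the results that rest on SMP or marker-negative arrays was not tested. Without the marker-negative arrays, the call of 1 of the 6 genes changed in the 6 panel comparisons that can then be fitted, Nr4a2 in blood against marrow.

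**Figure D1:**
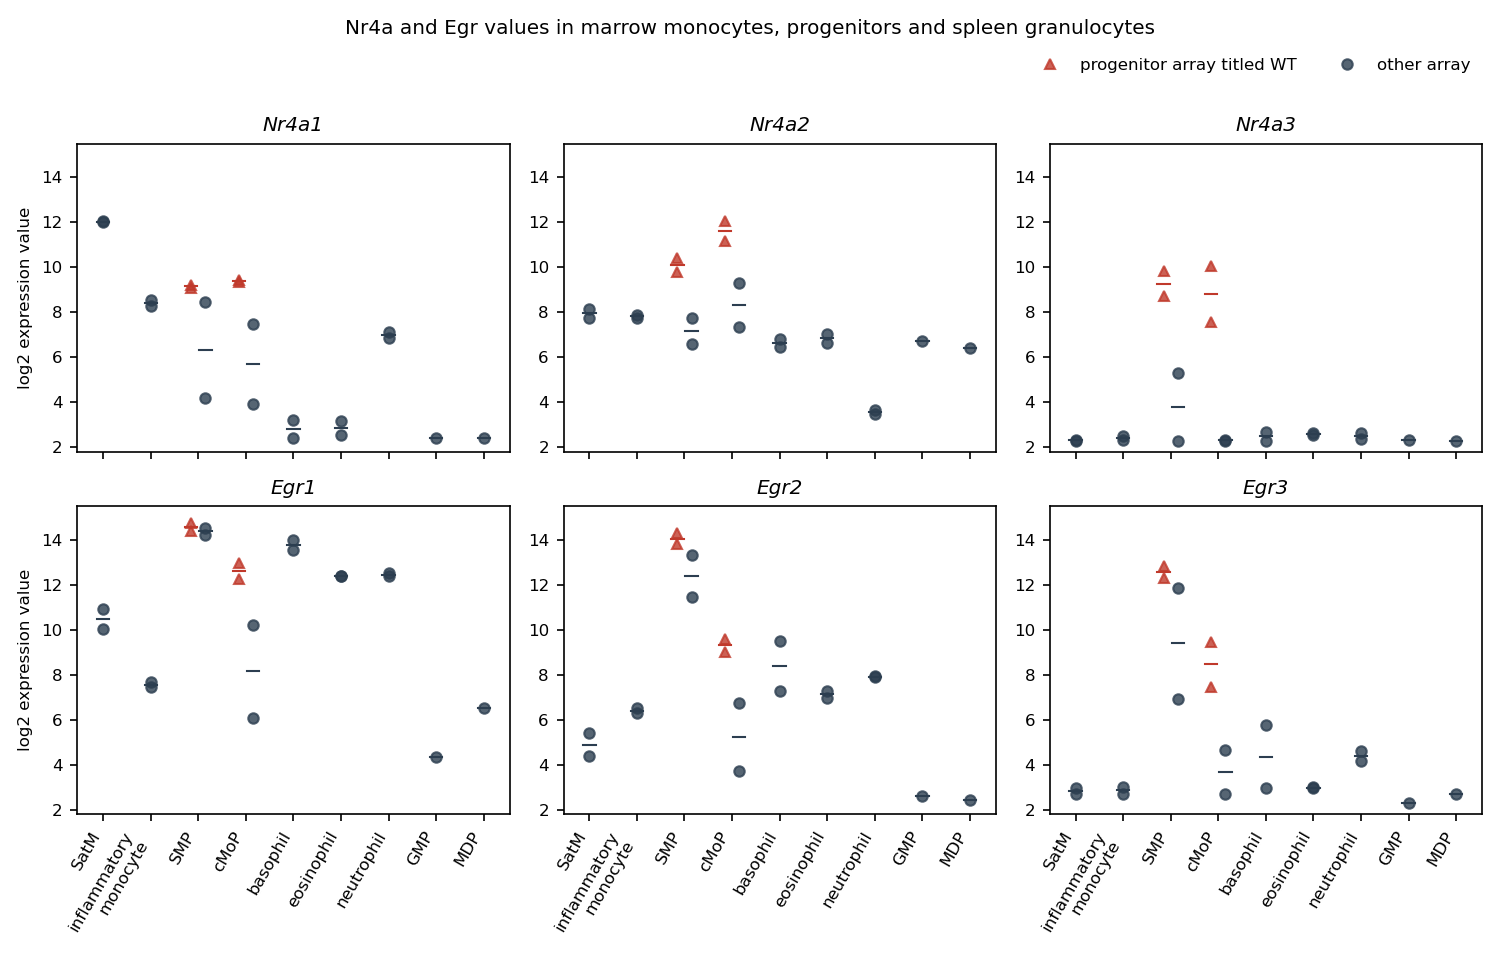
Log2 expression values of the 6 genes (vertical axis) in the 20 arrays outside the tissue panel, by cell type (horizontal axis), 1 point per array; horizontal bars are the means of the arrays of 1 title set. Nr4a1 was at 12.01 and 12.05 in SatM, and Egr1, Egr2 and Egr3 had their highest values in SMP arrays titled WT (triangles).

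Nr4a1 had its highest marrow values in SatM. It measured 12.01 and 12.05 in the SatM arrays, against 8.26 and 8.55 in the inflammatory monocyte arrays. The SMP arrays gave 9.10 and 9.22 (WT) and 8.46 and 4.17 (numbered), and the cMoP arrays 9.43 and 9.34 (WT) and 7.48 and 3.94 (numbered). Both SatM arrays lay above every progenitor and inflammatory monocyte array, while SMP and cMoP overlapped. Basophils had 3.22 and 2.39, eosinophils 2.52 and 3.16, neutrophils 7.11 and 6.86, and the GMP and MDP arrays 2.39 each. The order of means was thus SatM, inflammatory monocyte, SMP, cMoP, neutrophil and then eosinophil, basophil, GMP and MDP. Only the steps from SatM to inflammatory monocyte (3.63) and from neutrophil to eosinophil (4.14) left no overlap of arrays in that order.

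Among the 20 arrays outside the panel, the mean of Nr4a2 was highest in cMoP and lowest in neutrophils. It measured 10.41 and 9.78 (WT) and 7.76 and 6.58 (numbered) in SMP, against 12.06 and 11.16 (WT) and 9.28 and 7.34 (numbered) in cMoP. SatM had 8.16 and 7.76, against 7.87 and 7.76 in inflammatory monocytes, so the groups overlapped. Basophils had 6.45 and 6.83, eosinophils 6.64 and 7.05, and neutrophils 3.67 and 3.46. The neutrophil arrays lay below all others of the 20, while GMP (6.74) and MDP (6.43) lay near the basophils and eosinophils.

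Among the 20 arrays outside the panel, Nr4a3 was clearly above the floor in the WT-titled SMP and cMoP arrays and in 1 numbered SMP array. The WT-titled arrays gave 8.71 and 9.84 in SMP and 10.04 and 7.57 in cMoP, against 5.31 and 2.30 in the numbered SMP arrays and 2.31 and 2.30 in the numbered cMoP arrays. SatM had 2.31 and 2.30, against 2.34 and 2.50 in inflammatory monocytes, and the 8 basophil, eosinophil, neutrophil, GMP and MDP arrays lay between 2.30 and 2.66. The order among groups other than SMP and cMoP is that of values at or near the floor and is not read here.

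Egr1 mRNA was measured at high values in most myeloid arrays. The SMP arrays gave 14.76 and 14.37 (WT) and 14.53 and 14.22 (numbered), a spread of SD 0.23 over 4 arrays. The cMoP arrays gave 12.98 and 12.24 (WT) and 10.23 and 6.08 (numbered), a spread of SD 3.09. All 4 SMP arrays lay above all 4 cMoP arrays and above basophils (13.99 and 13.55), eosinophils (12.37 and 12.38) and neutrophils (12.51 and 12.37). SatM had 10.90 and 10.05, against 7.46 and 7.66 in inflammatory monocytes, with no overlap. MDP had 6.54 and GMP 4.32, below every other array except the numbered cMoP array at 6.08, which lay between them.

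Egr2 set SMP apart among the 20 arrays. It measured 14.30 and 13.79 (WT) and 13.31 and 11.43 (numbered) in SMP, against 9.60 and 8.999 (WT) and 6.74 and 3.73 (numbered) in cMoP. Next by mean were basophils at 9.48 and 7.27, whose mean lay 4.84 below that of SMP, and neutrophils at 7.92 and 7.90. SatM had 5.42 and 4.37, against 6.31 and 6.50 in inflammatory monocytes, and GMP (2.60) and MDP (2.42) were the lowest. Eosinophils, at 7.29 and 6.96, overlapped the cMoP arrays.

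Egr3 was likewise high in SMP and low in mature monocytes. It measured 12.85 and 12.30 (WT) and 11.87 and 6.92 (numbered) in SMP, against 9.45 and 7.47 (WT) and 4.65 and 2.70 (numbered) in cMoP, and these groups overlapped. SatM had 2.70 and 2.95, against 2.70 and 3.01 in inflammatory monocytes. The granulocyte arrays ran from 2.95 to 5.76, with basophils spread from 5.76 to 2.96.

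SatM and inflammatory monocytes were compared to ask what sets SatM apart among marrow monocytes. A gene was called at an adjusted p under 0.05 in limma and a log2 difference of at least 1. None of the 6 genes was called, and 2 had an unadjusted p under 0.05, while 9.34% of the 12077 genes tested were called. Nr4a1 was 3.63 ± 1.17 (SE) higher in SatM with an adjusted p of 0.0723, although its groups did not overlap. Egr1 differed by 2.92 ± 1.23 (adjusted p = 0.172) and Egr2 by -1.51 ± 1.02 (adjusted p = 0.450), and the other 3 differed by less than 0.2. The spread behind these tests is shared with the progenitor arrays, whose numbered pairs lay far apart in Nr4a1 (8.46 and 4.17 in SMP, 7.48 and 3.94 in cMoP). Fitted on the 4 arrays of the comparison alone, the adjusted p was 0.00882 for Nr4a1 and 0.0265 for Egr1, and with the panel's marrow SatM array added it was 0.0435 for Nr4a1. In bulk RNA, fewer cells of a type and less RNA per cell cannot be told apart, here or below.

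A few other genes of the pathway were called in SatM, where 9.34% of all genes tested were called. None of 9 AP-1 genes was called, and 2 of 14 other immediate-early genes were higher, the phosphatase gene Dusp2 (3.21, adjusted p = 0.0168) and the NF-kappa-B regulator gene Nfkbiz (1.42, adjusted p = 0.0441). Of the 11 tested transcription factors that act upstream, Klf2 (2.09, adjusted p = 0.00219) and Mef2d (1.88, adjusted p = 0.00182) were higher. Nab1, a corepressor of Egr proteins, was higher by 1.71 (adjusted p = 0.0372). The medians were 0.13 for the AP-1 genes, 0.71 for the other immediate-early genes and -0.02 over all genes. Of 6 eosinophil markers 4 were higher in SatM, and they summed to 36.4 to 42.1, against 14.4 to 14.8 in inflammatory monocytes. Their part in these differences was not tested.

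SMP and cMoP, both monocyte progenitors by label, differed in 4 of the 6 genes, where 35.5% of all genes tested were called. Egr2 was 5.94 ± 0.72 (SE) higher in SMP (adjusted p = 2.67e-05), and all SMP arrays lay above all cMoP arrays. Egr3 was 4.92 ± 0.95 higher (adjusted p = 0.00102), with 3 of 4 SMP arrays above every cMoP array, and Egr1 was 4.09 ± 0.87 higher (adjusted p = 0.00197). These 3 were called under each of the 21 alternatives tried, with sizes of 4.75 to 7.14 for Egr2, 2.63 to 5.75 for Egr3 and 1.96 to 6.22 for Egr1. The Egr1 difference was 1.96 in the WT-titled arrays and 6.22 in the numbered ones, and the lowest Egr3 value came with the mean of its probe sets. Nr4a2 fell in SMP, at -1.33 ± 0.40 (adjusted p = 0.0154), and its groups overlapped. That call was lost with the mean of the probe sets (-0.64, adjusted p = 0.138), with the numbered arrays alone (adjusted p = 0.161), with the 8 arrays fitted alone (adjusted p = 0.0700), with no term for the WT title (adjusted p = 0.293) and without 1 of 2 cMoP arrays (adjusted p = 0.0584 without cMoP 1 and 0.0524 without cMoP WT 1). Nr4a1 (0.19, adjusted p = 0.914) and Nr4a3 (0.98, adjusted p = 0.217) were not called.

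The wider immediate-early genes moved in the same comparison, where 35.5% of all genes tested were called. Among the AP-1 genes 5 of 9 were higher in SMP and 1 lower: Fosl1, which encodes the Fos family protein Fra-1, was at the floor in cMoP and higher by 5.54 (adjusted p = 3.71e-08), Fosb was higher by 3.58 (adjusted p = 4.84e-06) and Junb by 3.34 (adjusted p = 1.75e-05), while Atf3 was lower by -4.46 (adjusted p = 2.37e-05). Of the 14 other immediate-early genes 9 were higher and 2 lower. Ier3 was higher by 6.07 (adjusted p = 3.58e-06), Ppp1r15a by 3.27 (adjusted p = 1.24e-06) and Ier2 by 3.06 (adjusted p = 3.12e-06), and Klf4, a monocyte transcription factor gene, was lower by -5.00 (adjusted p = 1.21e-05). The medians were 1.53 and 1.51 for these lists, against -0.09 over all genes. Upstream, Mef2c was lower by -6.50 (adjusted p = 6.27e-05) and Elk3 and Elk4, ternary complex factors, were higher by 1.27 and 1.11 (adjusted p = 0.00221 and 5.41e-05). All 6 basophil markers were higher in SMP (median 10.59) and all 5 monocyte markers lower (median -6.16), and their part in these differences was not tested.

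Against basophils, which share those markers, SMP showed no called difference in the 6 genes. Here 2.85% of genes were called, and 3 of the 6 had an unadjusted p under 0.05. Egr3 differed by 4.63 ± 1.26 (adjusted p = 0.0702), Egr2 by 3.40 ± 0.96 (adjusted p = 0.0783) and Nr4a1 by 3.30 ± 1.10 (adjusted p = 0.128). For Egr2 all 4 SMP arrays, at 11.43 to 14.30, lay above both basophil arrays, at 7.27 and 9.48. The fit removes 1 WT-titled shift shared by SMP and cMoP, so these differences are neither plain differences nor those of the numbered SMP arrays. Egr1 had a fitted difference of -0.46 (adjusted p = 0.919), although all 4 SMP arrays lay above both basophil arrays and the plain means differed by 0.70. With the numbered or the WT-titled SMP arrays alone it was 0.61 and 0.80 (adjusted p = 0.811 and 0.101). With the replicate block Egr2 and Egr3 were called (adjusted p = 0.0417 and 0.0400), and with the WT-titled SMP arrays alone 5 genes were called, all but Egr1. Of the other immediate-early genes, Fosl1 was higher by 5.09 (adjusted p = 7.66e-05), at the floor in both basophil arrays, and Gadd45b by 1.68 (adjusted p = 0.0482).

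SatM and their labelled progenitor SMP differed in 3 of the 6 genes, against 26.8% of all genes. Nr4a1 was higher in SatM by 5.92 ± 1.10 (SE; adjusted p = 0.00111). Egr2 was lower by -6.88 ± 0.96 (adjusted p = 0.000115) and Egr3 by -6.17 ± 1.26 (adjusted p = 0.0022). In each of these 3 genes the arrays of the groups did not overlap, and nor did those of Egr1 (-2.83 ± 1.15, adjusted p = 0.0856), where 36.7% of all genes had no overlap. Here too 1 WT-titled shift shared by SMP and cMoP is removed, so these are not plain differences. Plain means differed by 4.30 (Nr4a1), -8.32 (Egr2), -8.16 (Egr3) and -3.99 (Egr1). For Egr1 the shift fitted separately was 0.19 in SMP and 4.45 in cMoP. Fitted on the arrays of the compared groups alone, Nr4a1 and Egr3 missed the threshold (adjusted p = 0.0557 and 0.0578) and Egr1 was called (-3.90, adjusted p = 0.00326). Egr1 was also called with no WT term (-3.99, adjusted p = 0.0343) and with the numbered progenitor arrays only (-3.90, adjusted p = 0.0141). With the WT-titled SMP arrays alone all 6 were called and Nr4a2 turned from 0.88 to -2.14 (adjusted p = 0.00121).

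Transcription factors that act upstream of these genes were higher in SatM than in SMP in 5 of 11 cases: Mef2c by 8.24 (adjusted p = 0.00013), Klf2 by 4.81 (adjusted p = 2.3e-07), Cebpb by 2.81 (adjusted p = 0.000327) and Mef2a by 2.42 (adjusted p = 2.03e-06), with Mef2d the fifth. Over all genes tested, 26.8% were called. Cebpb is needed in mice for Ly6C-low monocytes. AP-1 genes had 1 higher, Atf3 (6.65, adjusted p = 1.12e-05), and 3 lower of 9, among them Fosl1 (-5.09, adjusted p = 1.3e-06) and Fosb (-3.02, adjusted p = 0.000318).

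Between inflammatory monocytes and cMoP none of the 6 genes was called, with 1 unadjusted p under 0.05 (Nr4a1, 2.49 ± 1.10, adjusted p = 0.161; -0.98 with the WT-titled cMoP arrays alone) and 14.9% of genes called. With the WT-titled cMoP arrays alone 5 of the 6 were lower in inflammatory monocytes, among them Egr1 by -5.05 (adjusted p = 7.42e-06) and Nr4a3 by -6.38 (adjusted p = 0.000137), and Egr2 turned from 0.57 to -2.90 (adjusted p = 0.00731). Without the second numbered cMoP array Egr1 was lower by -3.54 (adjusted p = 0.000954). Upstream factors rose in inflammatory monocytes in 4 of 11 cases, Cebpb by 2.07 (adjusted p = 0.0059), Klf2 by 1.90 (adjusted p = 0.00161), Elk3 by 1.44 (adjusted p = 0.0153) and Mef2a by 1.39 (adjusted p = 0.000568).

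The WT-titled and the numbered progenitor arrays gave more calls among the 6 genes than any other of the 16 comparisons. The labels give the same strain, sex, age and tissue for both, and what WT marks is not stated. In the WT-titled arrays 5 of the 6 genes were higher, where 12.4% of all genes were called, 283 higher and 1218 lower. Nr4a3 was higher by 5.99 ± 0.61 (SE; adjusted p = 0.00015), Nr4a2 by 3.11 ± 0.40 (adjusted p = 0.000476), Egr3 by 3.98 ± 0.95 (adjusted p = 0.0136), Nr4a1 by 3.26 ± 0.83 (adjusted p = 0.0187) and Egr2 by 2.87 ± 0.72 (adjusted p = 0.0178). For the 3 Nr4a genes every WT-titled array lay above every numbered one, and 7.82% of all genes had no overlap between these sets in either direction. Both numbered cMoP arrays and 1 of the numbered SMP arrays had Nr4a3 at or near the floor. Egr1 differed by 2.32 ± 0.87 and was not called (adjusted p = 0.0834). With separate WT terms for SMP and cMoP it was called at the same size (adjusted p = 0.0262).

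These calls rest partly on single arrays. Without the second numbered cMoP array Nr4a1 was higher by 2.47 (adjusted p = 0.0542), and without the first WT-titled cMoP array Egr2 was higher by 2.51 (adjusted p = 0.0560). With the 8 progenitor arrays fitted alone, only Nr4a2 and Nr4a3 stayed called. Within SMP the shift of Egr1 was 0.19 (adjusted p = 1) and within cMoP 4.45 (adjusted p = 0.0125). The test of that difference gave -4.26 with an adjusted p of 0.147, none of the 6 genes passed it, and 1.75% of all genes did. Nr4a3 moved by 5.47 in SMP and 6.50 in cMoP, and Nr4a2 by 2.93 and 3.30.

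Other stress-responsive genes moved with the WT title in part, where 12.4% of all genes tested were called. Of 9 AP-1 genes Maff alone was higher (1.63, adjusted p = 0.0270). Of 14 other immediate-early genes 4 were higher, Csrnp1 (2.36, adjusted p = 0.0136), Ier3 (2.07, adjusted p = 0.0304), Gadd45b (1.63, adjusted p = 0.00455) and Nfkbiz (1.18, adjusted p = 0.0152), and Ier5, named here after its value was seen, was lower (-1.10, adjusted p = 0.0249). The medians were 0.48 and 0.98, against 3.18 for the 6 genes and -0.14 over all genes. The 9 heat shock genes summed to 95.6 to 102.9 in the WT-titled arrays, against 87.0 to 95.2 in the numbered ones. In cMoP the 6 matched neutrophil markers summed to 36.1 and 37.9 with the WT title and to 28.2 and 25.7 without. The part of either in the shift was not tested.

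**Figure D2:**
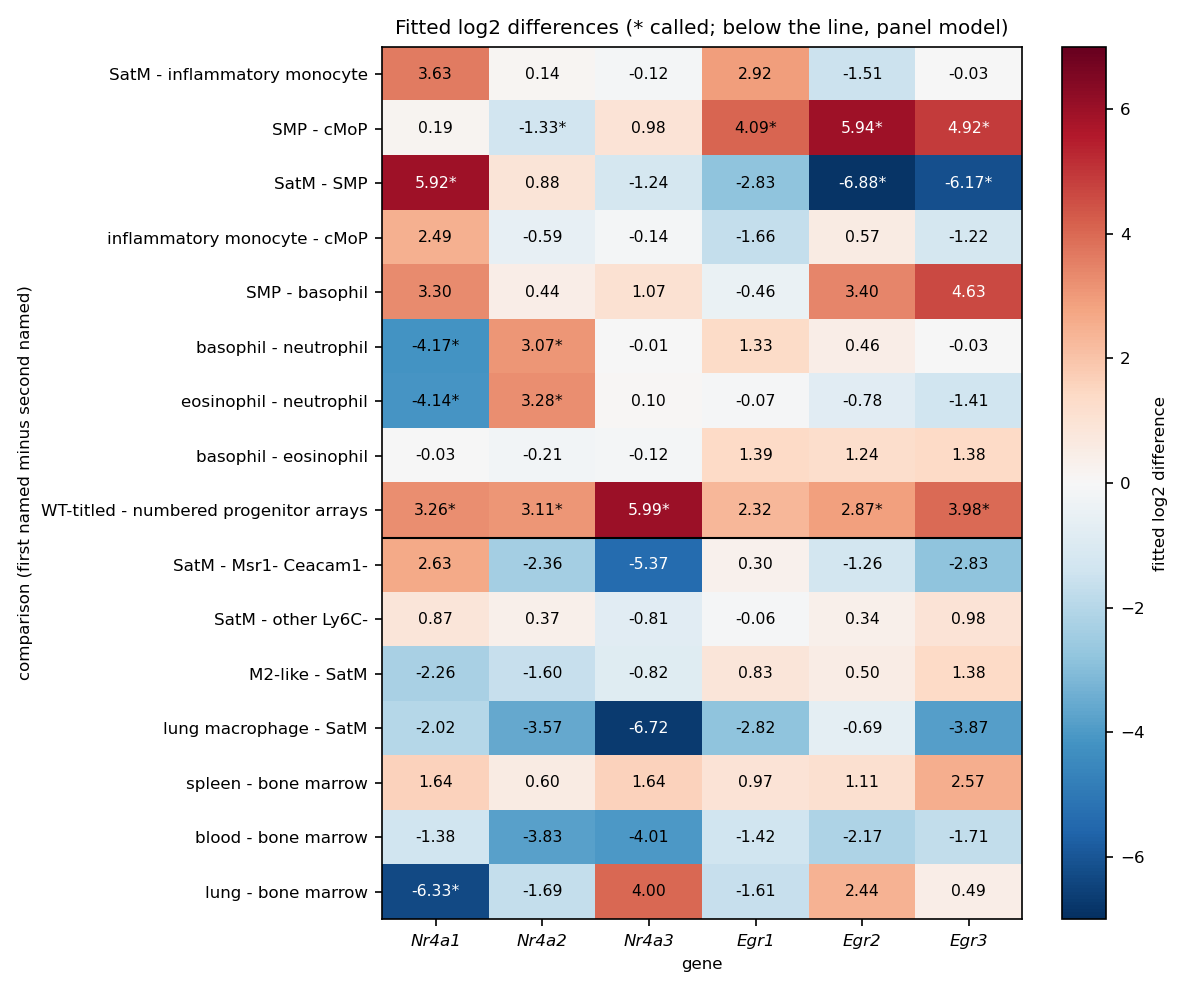
Fitted log2 differences of the 6 genes (columns) in the 16 comparisons (rows; the first named minus the second named, rows below the line from the panel model), coloured from blue (lower in the first named) to red (higher). Stars mark calls: Egr2 at 5.94 in SMP over cMoP, Nr4a3 at 5.99 in WT-titled over numbered arrays, and 1 call in the panel, Nr4a1 in lung.

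The granulocytes of the spleen differed in Nr4a1 and Nr4a2. Basophils against neutrophils gave 2 calls of 6 genes, where 37.4% of genes were called. Nr4a1 was lower in basophils by -4.17 ± 1.17 (SE; adjusted p = 0.012) and Nr4a2 higher by 3.07 ± 0.56 (adjusted p = 0.000722). Eosinophils against neutrophils gave the same 2 genes, where 40.5% of genes were called, with Nr4a1 at -4.14 ± 1.17 (adjusted p = 0.0116) and Nr4a2 at 3.28 ± 0.56 (adjusted p = 0.000433). Both comparisons share the neutrophil arrays. The Nr4a1 call against neutrophils was lost without neutrophil 1 (adjusted p = 0.0642 for basophils and 0.0618 for eosinophils), without basophil 2 (adjusted p = 0.0801) and without eosinophil 1 (adjusted p = 0.0643), and the Nr4a2 calls with the mean of the probe sets (adjusted p = 0.0756 and 0.168). Without a term for the WT title neither gene was called. Between basophils and eosinophils none of the 6 was called, none had an unadjusted p under 0.05, and 20.6% of genes were called. Egr1, at 13.99 and 13.55 in basophils against 12.37 and 12.38 in eosinophils, differed by 1.39 (adjusted p = 0.494). Basophil arrays also held the 6 matched neutrophil markers at 72.4 to 76.6, against 84.3 to 85.3 in neutrophils, and their part was not tested.

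The other immediate-early genes did not follow 1 direction among granulocytes. In basophils over neutrophils Fosb was higher by 6.05 (adjusted p = 1.17e-06) and Jun by 3.94 (adjusted p = 2.88e-05), while Atf3 (-3.45, adjusted p = 0.00255) and Fosl2 (-2.67, adjusted p = 9.36e-05) were lower. In all, 2 AP-1 genes were higher and 3 lower of 9, and of 14 other immediate-early genes 4 were higher and 3 lower. Over all genes tested, 37.4% were called. The upstream genes Cebpb (-2.93, adjusted p = 0.000287) and Klf2 (-2.64, adjusted p = 7.05e-05) were lower in basophils. In eosinophils over neutrophils Cebpb was not called, and Mef2a was lower by -3.15 (adjusted p = 3.3e-07).

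**Figure D3:**
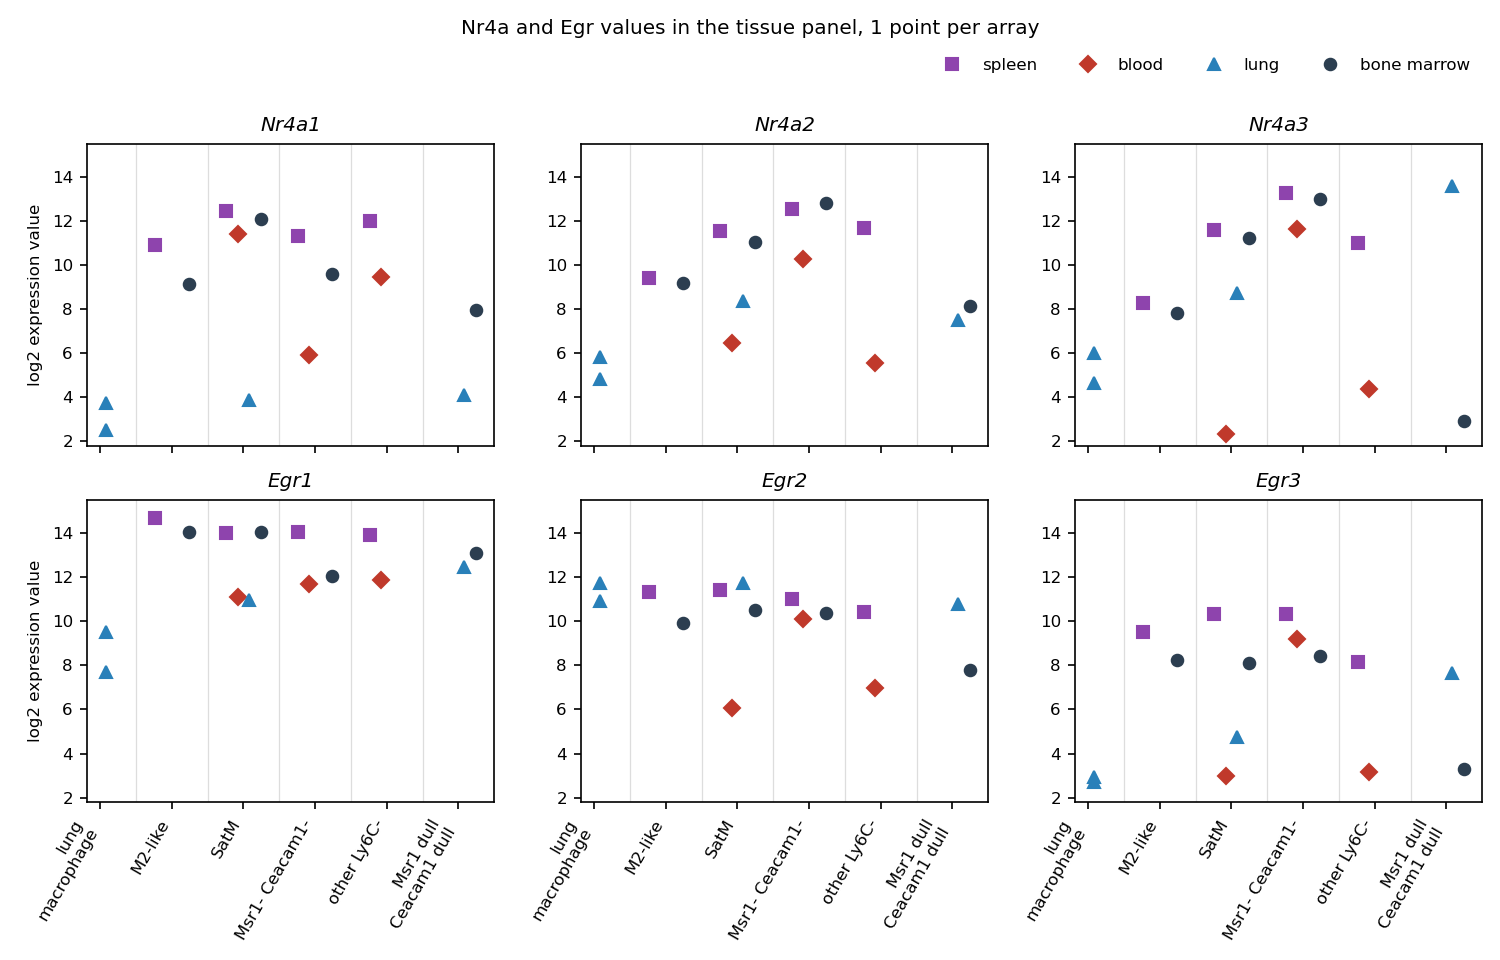
Log2 expression values of the 6 genes (vertical axis) in the 15 panel arrays, by cell type (horizontal axis) and tissue (marker shape and colour), 1 point per array. Nr4a1 lay between 2.52 and 4.10 in the 4 lung arrays, and Nr4a3 was highest in the lung marker-dull array (13.59).

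In the tissue panel, whose model shares 1 spread over its 15 arrays, Nr4a1 was low in every lung array. The lung arrays gave 3.73 (MP), 2.52 (F4/80-positive), 3.89 (SatM) and 4.10 (marker-dull), against 9.15 (M2-like), 12.06 (SatM), 9.57 (marker-negative) and 7.93 (marker-dull) in marrow. SatM from spleen had 12.45 and from blood 11.41, so the lung SatM array lay far below the other 3. Only SatM and marker-dull cells were sorted from both lung and marrow, and the marker-dull arrays differed in dendritic cell markers (below). Lung against marrow, fitted with terms for cell type and tissue, rests on these sorts and gave -6.33 ± 1.16 (SE; adjusted p = 0.0205). Nr4a1 was the only call of the 6, where 9.3% of the 11734 genes tested were called. Without the lung SatM array the difference was -3.83 (adjusted p = 0.0958), without the marrow SatM array -5.96 (adjusted p = 0.0576), and without the marker-negative arrays -6.01 (adjusted p = 0.0263). With no filter the adjusted p was 0.0520, and with the compared groups alone 0.162.

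Of the 11 upstream transcription factors 3 were lower in lung and none higher, where 9.3% of all genes tested were called. Klf2 was lower by -5.16 (adjusted p = 0.000472), Cebpb by -4.23 (adjusted p = 0.0249) and Mef2d by -1.55 (adjusted p = 0.0386). For Cebpb the lung and marrow arrays overlapped, and their plain means differed by -0.97. The immediate-early genes Dusp2 (-4.11, adjusted p = 0.0373), Ppp1r15a (-3.01, adjusted p = 0.0400) and Ier2 (-2.08, adjusted p = 0.0411) were lower, and no AP-1 gene was called. The medians were -1.41 for AP-1, -1.24 for other immediate-early genes and 0.07 over all genes. Of the 6 matched neutrophil markers 5 were lower in lung, where they summed to 24.0 to 26.6, against 41.8 to 74.7 in marrow, and the 5 lung epithelium markers summed to 15.9 to 34.2, against 12.6 to 15.1. Their part was not tested.

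Egr2 values of the lung lay above those of the marrow, without a call. It measured 11.72 (MP), 10.93 (F4/80-positive), 11.74 (SatM) and 10.78 (marker-dull) in lung, above all 4 marrow arrays, at 9.94 (M2-like), 10.49 (SatM), 10.36 (marker-negative) and 7.77 (marker-dull). The fitted difference of 2.44 ± 0.89 was not called (adjusted p = 0.120; unadjusted, 2 of the 6 genes had p under 0.05). The spleen arrays, at 11.34 (M2-like), 11.41 (SatM), 11.01 (marker-negative) and 10.43 (other Ly6C-), overlapped the lung arrays in Egr2. The share of all genes without overlap between lung and marrow was not counted. Egr1 was lowest in the lung macrophage arrays, at 7.70 and 9.53, and Egr3 there was at 2.70 and 2.95.

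Between lung macrophages and SatM of the panel none of the 6 genes was called, with 0.239% of genes called and 2 unadjusted p under 0.05. Nr4a2 was at 4.82 and 5.84 in lung macrophages, against 11.52 (spleen), 6.47 (blood), 8.37 (lung) and 11.06 (marrow) in SatM, a fitted difference of -3.57 ± 0.95 (adjusted p = 0.442). Egr1 differed by -2.82 ± 0.85 (adjusted p = 0.534), and Nr4a1, Nr4a3 and Egr3 by -2.02, -6.72 and -3.87 (adjusted p = 0.779, 0.734 and 0.745). Only 1 lung SatM array links the 2 cell types directly in this tissue. Without it the lung term rests on the marker-dull arrays (Nr4a3 at 13.59 in lung and 2.92 in marrow). Nr4a3 then gave -15.32 (adjusted p = 0.0282), beyond the range of the measured values.

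Nr4a2 lay below its marrow value in both cell types sorted from blood and marrow, without a call. In blood it was at 6.47 (SatM), 10.26 (marker-negative) and 5.53 (other Ly6C-), against 11.06 (SatM), 12.80 (marker-negative), 9.18 (M2-like) and 8.14 (marker-dull) in marrow. Blood minus marrow was -3.83 ± 0.75, not called at an adjusted p of 0.0972, and none of the 6 was called, with 2 unadjusted p under 0.05 and 0.102% of genes called. Without the marker-negative arrays it was -4.64 and called (adjusted p = 0.0327). Among the 4 panel SatM arrays the blood array also had the lowest Egr2 (6.06), Egr3 (2.99) and Nr4a3 (2.31), while its Nr4a1 was 11.41.

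Between spleen and marrow none of the 6 genes was called, with no unadjusted p under 0.05 and 0.0937% of genes called. All 6 fitted differences, spleen minus marrow, were positive, from 0.60 for Nr4a2 to 2.57 for Egr3 (adjusted p = 0.697 and 0.440). In SatM, Nr4a1 was at 12.45 in spleen and 12.06 in marrow, and Egr1 at 14.01 and 14.07.

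Between SatM and the marker-negative cells none of the 6 genes was called, with 3 unadjusted p under 0.05 and 10.2% of genes called. Nr4a3 was at 11.58 (spleen), 2.31 (blood), 8.71 (lung) and 11.22 (marrow) in SatM, against 13.28 (spleen), 11.63 (blood) and 12.97 (marrow) in marker-negative cells. These groups did not overlap, and the fitted difference of -5.37 ± 2.21 was not called (adjusted p = 0.169). Nr4a2 differed by -2.36 ± 0.69 (adjusted p = 0.0670), and by -3.04 (adjusted p = 0.0295) without the marker-negative spleen array. Nr4a1 differed by 2.63 ± 0.98 (adjusted p = 0.136), with the blood arrays at 11.41 in SatM and 5.90 in marker-negative cells. Upstream, Cebpb was higher in SatM by 6.46 (adjusted p = 0.00157), and Crem, a cAMP-responsive factor gene, was lower by -3.76 (adjusted p = 0.0297). Of the 4 matched NK cell markers 3 were called lower in SatM, and their part in these differences was not tested.

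None of the 6 genes was called between SatM and other Ly6C- monocytes or between M2-like macrophages and SatM. SatM minus other Ly6C- cells ran from -0.81 (Nr4a3) to 0.98 (Egr3) with every adjusted p at 1, no unadjusted p under 0.05 and 0.0682% of genes called. Nr4a1 was at 12.45 (spleen) and 11.41 (blood) in SatM, against 11.99 (spleen) and 9.46 (blood) in other Ly6C- cells. M2-like minus SatM ran from -2.26 (Nr4a1, SE 1.14, adjusted p = 0.288) to 1.38 (Egr3, SE 1.69, adjusted p = 0.722), with no unadjusted p under 0.05 and 8.31% of genes called. A p that misses the threshold does not show that the cells are alike. Egr1 was at 14.67 (spleen) and 14.05 (marrow) in M2-like arrays, against 14.01 (spleen) and 14.07 (marrow) in SatM.

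The marker-dull sorts, not compared by a test, split by tissue. Nr4a3 was 13.59 in lung, the highest of the 35 arrays, and 2.92 in marrow, and Egr3 was 7.64 in lung and 3.28 in marrow. The 6 dendritic cell markers summed to 53.4 in the lung array with none at the floor, against 15.6 in the marrow array, where Xcr1, Ccr7 and Cd209a were at the floor. Their part was not tested.

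The same SatM label did not give the same values in the 2 array sets. SatM of marrow in the panel had Nr4a1 at 12.06, as close to the first arrays (12.01 and 12.05) as those to each other, but Nr4a3 at 11.22, against 2.31 and 2.30, Egr2 at 10.49, against 5.42 and 4.37, and Egr3 at 8.09, against 2.70 and 2.95. Nr4a2 was at 11.06, against 8.16 and 7.76, and Egr1 at 14.07, against 10.90 and 10.05. Array set and sort cannot be told apart here, since the panel has 1 such array and the sets share no other sort. That array also held 5 progenitor markers at 44.5, against 13.7 to 18.1 in the first SatM arrays.

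Within groups of 2 arrays the pooled SD was 0.62 for Nr4a2, 0.96 for Nr4a3, 1.03 for Egr1, 1.04 for Egr2, 1.34 for Nr4a1 and 1.50 for Egr3, while the range over the 35 arrays was 9.34 for Nr4a2, 10.06 for Nr4a1, 10.44 for Egr1, 10.55 for Egr3, 11.29 for Nr4a3 and 11.88 for Egr2. In both numbered progenitor pairs and in the WT-titled cMoP pair, 1 array was below the other for all 6 genes.

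**Figure D4:**
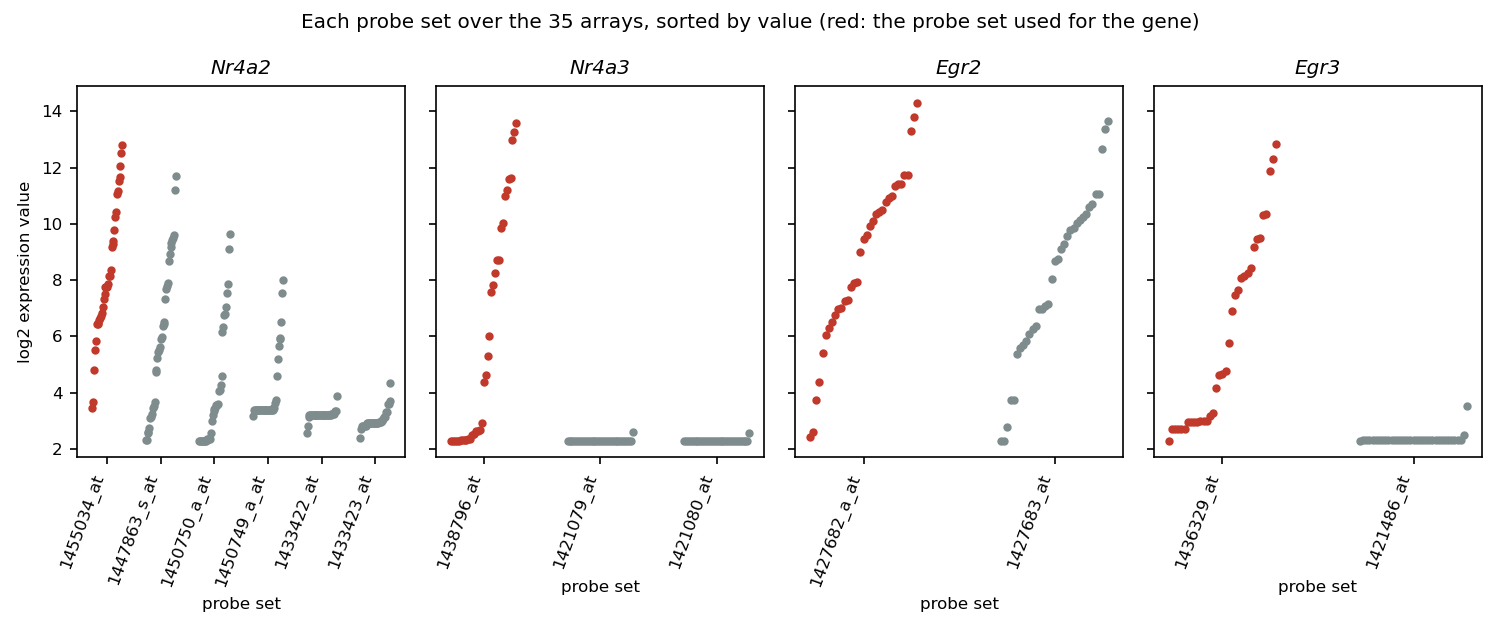
Log2 values of each probe set of Nr4a2, Nr4a3, Egr2 and Egr3 (horizontal axis, probe set) over the 35 arrays, sorted by value within a probe set (vertical axis); red marks the probe set used for the gene. Both Egr2 probe sets span over 11 log2 units, while 2 of 3 Nr4a3 probe sets stay within 0.3 of their lowest value.

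Probe sets of 1 gene did not all respond. The 2 probe sets of Egr2 correlated at r = 0.99 over the 35 arrays, and both gave the call in SMP over cMoP (5.94 and 6.02). For Nr4a2, 3 of the 5 further probe sets followed the one used (r = 0.77 to 0.86), while the other 2 did not (r = 0.12 and 0.03) and varied by 1.30 and 1.96. In SMP over cMoP, 1 of the 3 that followed was lower, as the one used was (-2.27, adjusted p = 0.0319), while another gave 0.02 (adjusted p = 1). For Nr4a3, 2 probe sets lay at or near the floor with ranges of 0.29 and 0.25, while the one used ranged over 11.29. The second Egr3 probe set was within 0.5 of its lowest value on 34 of 35 arrays. Nr4a1 and Egr1 had 1 probe set each. Array points share platform and processing, so these correlations are descriptions.

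Across the 26 sample groups the 6 genes formed no single pattern. Correlations of group means ran from r = 0.23 (Nr4a1 and Egr2) to 0.79 (Nr4a3 and Egr3), with 0.76 for Nr4a2 and Nr4a3 and 0.73 for Egr2 and Egr3. Egr1 and Egr2 correlated at 0.87 over the 11 groups outside the panel and at 0.00 over the 15 of the panel. Among 12866 genes, those most like Nr4a1 were Wsb1 (r = 0.85), Siah1a (0.85) and Pde4b (0.83), those most like Nr4a2 Rbm48 (0.81), Gem (0.79) and Grasp (0.78), and those most like Nr4a3 Grasp (0.85), Etv3 (0.84) and Gem (0.81). For Egr1 they were Nfkbia (0.92), Jund (0.88) and Cpeb2 (0.87), for Egr2 Hif1a (0.84), Hipk3 (0.79) and Zc3h12a (0.79), and for Egr3 Kdm6a (0.84), Chka (0.84) and Ccl4 (0.83). Against 23 other immediate-early genes the median r was 0.71 for Egr1, 0.59 for Nr4a1, 0.52 for Egr3, 0.47 for Egr2, 0.37 for Nr4a2 and 0.31 for Nr4a3. These are descriptions over groups that share arrays' processing, and many rest on 1 array.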

How the data were processed

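Gene expression was measured on 35 Affymetrix Mouse430_2 arrays. The log2 values are those the authors deposited; how they were made is not given in the sources used here, and the log base was taken from their range, 2.30 to 16.02. Of 45101 probe sets, 34945 carried 1 gene symbol and gave 18193 genes. A gene had to exceed the array median on at least 2 arrays of a model. Differences were tested with limma 3.58.1 in R 4.3.3 (lmFit, eBayes with trend), on 20 arrays with terms for cell type and the WT title (12077 genes, 10 residual degrees of freedom) and on the 15 panel arrays with terms for cell type and tissue (11734 genes, 6). The WT term is 1 shift shared by SMP and cMoP, and differences of the panel are adjusted for tissue, so fitted differences can depart from plain differences of means, also in sign. P-values were adjusted over all genes of a model by the Benjamini-Hochberg method. The members and lists were chosen with earlier results of these data known. Named genes are the 6 members, up to 4 called genes of each immediate-early, partner or upstream list with the largest differences, and the 3 genes most correlated with each member over group means. The pipeline was tested on simulated data: of changes of 2 log2 units, 62% were recovered for SatM minus inflammatory monocytes, 86% for SMP minus cMoP and 41% for lung minus marrow. Same-numbered arrays deviated with correlations of -0.10 to 0.23, and the labels do not say that numbers pair arrays. Promoters came from RefSeq.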

Additional observations from a re-analysis of the deposited data

Results flagged for a closer look

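In SMP, Nr4a1 measured 4.17 in the second numbered array, with the nearest of the other 3 at 8.46. In the same array Egr3 measured 6.92, with the nearest other at 11.87. Among the 4 panel SatM arrays, Nr4a1 measured 3.89 in lung, with the nearest other at 11.41. Each was flagged because the gap to the nearest array took up most of the range of the 4 arrays, beyond Dixon's limit. In all, 18 sets of 4 arrays were examined, and chance flags about 1 in 20. SMP pools WT-titled and numbered arrays, and the panel SatM arrays come from 4 tissues, so these sets hold differences of title or tissue as well as spread between replicates.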

How the results depend on the processing

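Over 96 member differences and 1680 alternative values, 1552 kept their direction and their side of the threshold, 63, in 35 differences, changed sign with no call before or after, 27 lost the call, 36 gained one and 2 turned to a call in the other direction. Those 2 came with WT-titled progenitor arrays only: Nr4a2 in SatM minus SMP (-2.14, adjusted p = 0.00121) and Egr2 in inflammatory monocytes minus cMoP (-2.90, adjusted p = 0.00731). With that setting the members called numbered 6 in place of 3 for SatM minus SMP, 5 in place of 0 for inflammatory monocytes minus cMoP and 5 in place of 0 for SMP minus basophil. With the compared groups alone they numbered 2 in place of 0 for SatM minus inflammatory monocytes, 1 in place of 0 for basophil minus eosinophil, 2 in place of 5 for the WT title and 0 in place of 1 for lung minus marrow. With the panel's marrow SatM array added, SatM minus inflammatory monocytes gave 1. SMP minus basophil gave 2 with the replicate block, and 1 each with the filter at the 60th percentile, no WT term and numbered arrays only; the block moved no other comparison's count of members called by over 1.5 times. Basophil minus neutrophil and eosinophil minus neutrophil each gave 1 with the mean of probe sets and 0 with no WT term. SatM minus marker-negative gave 1 with the filter at the 60th percentile and 1 with the mean of probe sets. Lung minus marrow gave 0 with no filter. Blood minus marrow gave 1 without the marker-negative arrays, a setting chosen after seeing the data. Leaving out 1 array gave 0 to 1 calls for inflammatory monocytes minus cMoP (1 without cMoP 2), SatM minus marker-negative (1 without the spleen marker-negative array), lung macrophages minus SatM (1 without lung SatM) and lung minus marrow, 0 to 2 for SMP minus basophil (2 without SMP 2), and 1 to 2 for both granulocyte comparisons with neutrophils. The widest sign change without a call was that of Nr4a3 in lung minus marrow. That difference was 3.997 in the full panel and -1.27 with either marker-dull array left out. Only SatM (8.71 in lung, 11.22 in marrow) and marker-dull cells (13.59 and 2.92) came from both tissues. With a marker-dull array left out, the lung term rested on SatM. The cause of the other changes was not tested. Counts over all genes moved by over 1.5 times in several comparisons: SatM minus inflammatory monocytes 538 to 1372 (1128 as reported), SatM minus SMP 1686 to 3793 (3234), inflammatory monocytes minus cMoP 1003 to 3238 (1795), SMP minus basophil 0 to 2673 (344), basophil minus eosinophil 1529 to 2845 (2493), the WT title 332 to 2170 (1501), SatM minus marker-negative 117 to 1440 (1200), SatM minus other Ly6C- 0 to 17 (8), M2-like minus SatM 0 to 1312 (975), lung macrophages minus SatM 0 to 1269 (28), spleen minus marrow 0 to 316 (11), blood minus marrow 0 to 464 (12) and lung minus marrow 0 to 2205 (1091). Of 312 alternative levels 53 moved by over 1 SD, all with the mean of probe sets. With 1 or 2 arrays per sort, moderate differences can be missed.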
